A study of Mus musculus with 14 samples.

Results

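Transcript levels of 6 regulators of muscle gene expression, Myod1, Myog, Mef2a, Mef2c, Mef2d and Six4, were examined in hind limb skeletal muscle of WT mice (wild type) and KO mice (Myf6 knockout). They were found by gene symbol in the deposited expression tables, which gave 6 of 49585 listed genes, and all 6 passed the filter on low values in every comparison. There were 4 groups of 3 RNA libraries each: WT without injury, Myf6 KO without injury, WT with injury, and Myf6 KO with injury. The knockout allele, the kind of injury, the time after it, and the age, sex and strain of the mice are not given in the sources used here. Uninjured and injured libraries of a genotype share sample numbers, and the labels do not say whether a number names an animal. Where nothing states that libraries came from separate animals, the p-values measure the spread between these libraries. A list of DNA binding sites of Flag-tagged Myf6, from chromatin immunoprecipitation in primary myotubes that derive from adult muscle satellite cells, came from 1 library and 1 control. The library's title names Myf6 and its antibody is against Flag, and the tagged construct and its promoter are not given in the sources used here.

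Myod1 and Myog belong, with Myf5 and Myf6, to the myogenic regulatory factors, basic helix-loop-helix proteins that pair with E proteins and bind E-boxes, short DNA motifs in the control regions of muscle genes. Mef2 proteins are MADS-box factors that bind an AT-rich motif, work together with the myogenic factors, and are held inactive by class IIa histone deacetylases until kinase signals release them. Six4 is a homeodomain factor that binds the MEF3 motif, a sequence found in the control regions of muscle genes including Myog, and acts with Eya cofactors.

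The depth of the RNA libraries ranged from 1880087 assigned reads in uninjured WT replicate 2 to 49392472 in injured KO replicate 3, so that 3 reads correspond to 0.0607 to 1.596 RPM (reads per 1000000 reads assigned to genes). Myf6 itself was at 25 to 121 RPM in the 6 WT libraries and at 1.86 to 3.46 RPM in the 6 KO libraries, with log2 changes of -3.90 in uninjured muscle (limma adjusted p 0.0215) and -4.22 in injured muscle (adjusted p 0.00697). With 1 library left out, these estimates stayed at -4.39 to -3.34 and at -4.54 to -3.88, and the call was kept in 3 of 6 fits without injury (without WT replicate 2, KO replicate 2 or KO replicate 3) and in 1 of 6 with injury (without KO replicate 2). KO replicate 2 stood apart from the other KO libraries: mitochondrial genes took 15.3% of its reads without injury and 23.2% with injury, against 3.63 to 6.76% in KO replicates 1 and 3 and 8.35 to 22.3% in WT. Defining fibre genes, such as Acta1 and Ckm, were abundant in all 12 libraries. Their 12 markers summed to 142430 to 161343 RPM in uninjured WT and 198707 to 226932 RPM in uninjured KO, groups that did not overlap, and overlapped after injury. The 8 leukocyte markers summed to 103 to 198 RPM in uninjured WT against 57.9 to 95.2 RPM in KO, and to 129 to 167 against 107 to 114 RPM after injury, again without overlap, and Ptprc was at 0 in uninjured KO replicate 2. The 8 satellite cell markers overlapped without injury and summed to 85.3 to 93.4 RPM in injured WT against 72.7 to 82.0 RPM in injured KO, and adipocyte markers were at 471 to 1143 against 1243 to 2379 RPM after injury. Adipocyte markers overlapped without injury, and the summed fibroblast, endothelial, Schwann cell, smooth muscle and erythroid markers overlapped in both states. Of single genes tested, 21.7% separated the genotypes without injury and 16.9% with injury, and no such share was computed for sums of genes. The part of these marker differences in the results below was not tested. In whole muscle, fewer cells of a type and less RNA per cell cannot be told apart.

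None of the 6 regulators passed an adjusted p of 0.05 between KO and WT in either state. The estimates for KO minus WT ran from -0.35 to 0.43 on the log2 scale without injury and from -0.69 to 0.38 with injury. Across all genes, 0.281% were called in uninjured muscle (35 of 12460) and 0.269% in injured muscle (34 of 12625), rates so low that 0 of 6 says little about the members. At an unadjusted p under 0.05 there were also 0 members in either state, against 14.2% and 10.3% of all genes, and DESeq2 on recovered reads gave 1, Mef2c in injured muscle. Among the 12 comparisons of a member within a state, Mef2c after injury was the only one in which the KO and WT libraries did not overlap: 0 of 6 members separated the genotypes without injury, against 21.7% of all genes.

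**Figure D1:**
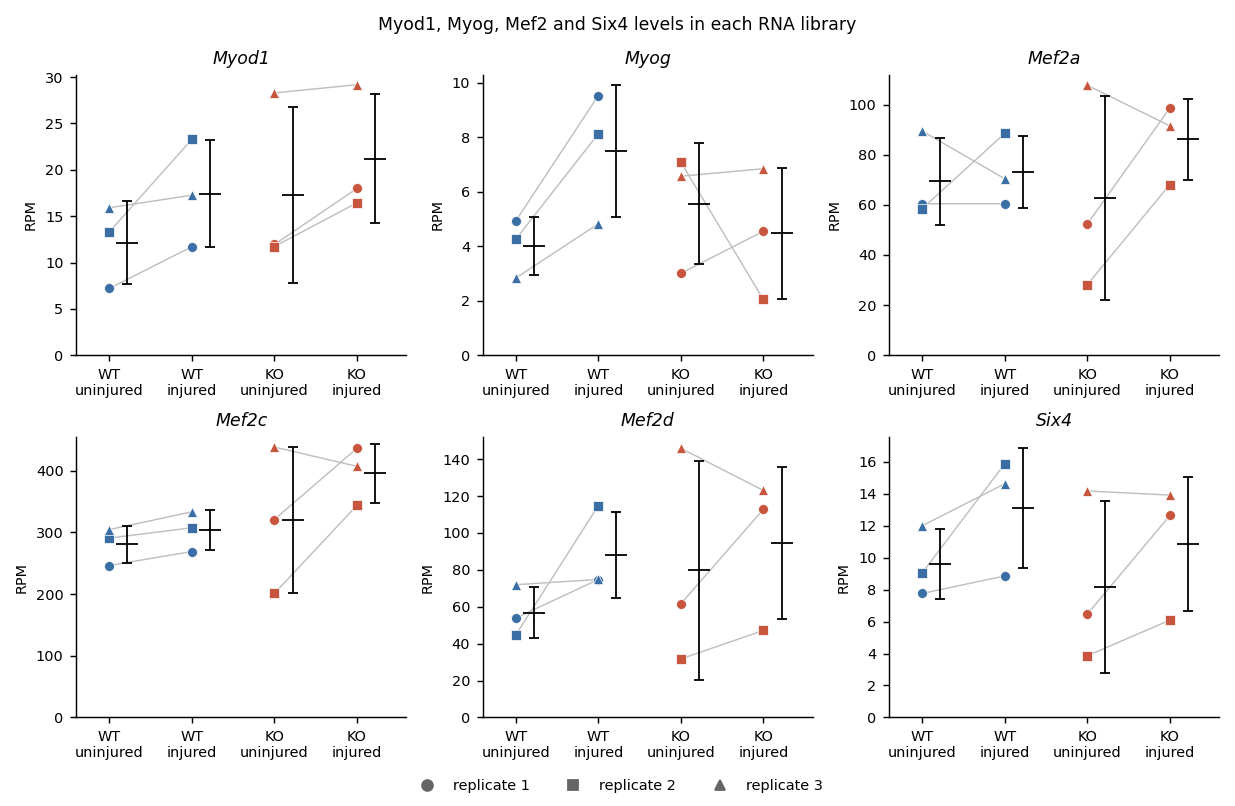
RPM (linear axis from 0) of Myod1, Myog, Mef2a, Mef2c, Mef2d and Six4 in each of the 12 RNA libraries, with WT in blue and KO in red, circles, squares and triangles for replicates 1, 2 and 3, lines joining libraries with the same number, and black bars for the mean ± SD (n = 3). For Mef2c all 3 injured KO libraries lie above all 3 injured WT libraries, and KO replicate 2 is the lowest KO library of the 3 Mef2 genes and Six4 in both states.

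Mef2c, the Mef2 gene with roles in both skeletal and cardiac muscle, separated the genotypes after injury. It was at 269, 308 and 334 RPM in the injured WT libraries and at 436, 344 and 407 RPM in the injured KO libraries. Every injured KO library was above every injured WT library. The means were 303 ± 32.4 and 396 ± 47.3 RPM (SD, n = 3), a difference of 0.38 on the log2(RPM + 1) scale with a 95% interval of -0.05 to 0.81, which did not pass the test (limma adjusted p 0.540). The exact permutation p was 0.1, the smallest that 3 against 3 libraries allow, and 16.9% of all genes separated the injured groups in this way. Without injury, Mef2c was at 246, 291 and 305 RPM in the WT and at 321, 201 and 439 RPM in the KO libraries. By RPM, KO replicate 2 was below and replicates 1 and 3 above all the WT libraries, so the groups overlapped. The difference was 0.12 with an interval of -0.58 to 0.83 (limma adjusted p 0.895), and its sign turned to -0.14 without uninjured KO replicate 3. Over 10 alternatives of processing that left no library out, the difference ran from 0.12 to 0.42. In order of the group means, Mef2c went from 281 ± 30.4 RPM in uninjured WT through 303 in injured WT and 320.2 ± 119 in uninjured KO to 396 in injured KO (SD, n = 3). Each step in that order was smaller than the SD of at least one of the 2 groups it joins. Sorting by mean sets near values side by side, so these steps, here and for the members below, say nothing about groups further apart. Injured WT and injured KO are not neighbours in that order, and their means were further apart than either SD.

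Mef2a, which encodes another Mef2 protein of adult muscle and heart, gave no separation of the genotypes. Its values were 60.4, 58.5 and 89.4 RPM in uninjured WT, 52.4, 28.2 and 108 RPM in uninjured KO, 60.5, 88.5 and 70.4 RPM in injured WT, and 98.7, 68.1 and 91.5 RPM in injured KO. The uninjured KO libraries held both the lowest and the highest value of the gene, in replicates 2 and 3. Differences between KO and WT were -0.32 without injury (95% interval -1.34 to 0.69, limma adjusted p 0.796) and 0.23 with injury (-0.29 to 0.76, adjusted p 0.758). Without uninjured KO replicate 2 the first of these was 0.14, and over 10 alternatives of processing that left no library out it ran from -0.33 to -0.035. Its group means increased from 62.8 ± 40.8 RPM in uninjured KO through 69.5 ± 17.3 in uninjured WT and 73.1 ± 14.2 in injured WT to 86.1 ± 15.98 in injured KO (SD, n = 3), with no neighbours further apart than their SD.

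Mef2d, the third Mef2 gene of muscle and a regulator of late differentiation, had the widest spread of the 6 relative to its mean, a coefficient of variation of 74.2% in uninjured KO. Uninjured values were 53.9, 44.7 and 71.9 RPM in WT and 61.6, 31.7 and 146 RPM in KO, which put the SD of the KO group at 59.2 RPM around a mean of 79.7 RPM. The KO range enclosed the WT range. After injury Mef2d was at 74.7, 115 and 74.8 RPM in the WT and at 113, 47.1 and 123 RPM in the KO libraries, again with the KO libraries on both sides of WT. The KO minus WT differences were 0.24 (95% interval -0.87 to 1.35, limma adjusted p 0.867) and 0.01 (-0.91 to 0.94, adjusted p 0.996). Leaving out 1 library turned the first to -0.33 (without uninjured KO replicate 3) and moved the second to between -0.24 and 0.45. Means increased in the order uninjured WT (56.8 ± 13.9 RPM), uninjured KO, injured WT (88.1 ± 23.1) and injured KO (94.3 ± 41.2; SD, n = 3), each step within the SD of a neighbour.

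Myod1, the factor that can convert other cell types to muscle and that marks activated satellite cells, was at 7.21, 13.3 and 15.9 RPM in uninjured WT and at 11.9, 11.7 and 28.3 RPM in uninjured KO. In injured muscle it was at 11.7, 23.3 and 17.3 RPM in the WT and at 18.0, 16.4 and 29.2 RPM in the KO libraries. KO replicate 3 was the highest library in both states, and the other KO libraries lay among the WT values. The log2 differences of KO from WT were 0.43 (95% interval -0.56 to 1.42, limma adjusted p 0.710) and 0.28 (-0.47 to 1.02, adjusted p 0.803). With 1 library left out the first ran from 0.031, without uninjured KO replicate 3, to 0.64, and the second from 0.032, without injured KO replicate 3 or injured WT replicate 1, to 0.50. Group means ran from 12.1 ± 4.47 RPM in uninjured WT through 17.3 ± 9.5 in uninjured KO and 17.4 ± 5.79 in injured WT to 21.2 ± 6.95 in injured KO (SD, n = 3), with every step smaller than the SD of a neighbour.

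Myog, which drives the terminal differentiation and fusion of myoblasts, had few reads. It was at 4.92, 4.26 and 2.83 RPM in uninjured WT and at 3.01, 7.08 and 6.57 RPM in uninjured KO. The 4.26 RPM of WT replicate 2 rest on 8 reads, for which a 95% Poisson interval, covering counting error only, spans 1.84 to 8.38 RPM. With injury Myog was at 9.53, 8.12 and 4.82 RPM in the WT and at 4.55, 2.05 and 6.84 RPM in the KO libraries. WT replicates 1 and 2 were above all injured KO libraries, while WT replicate 3 lay between KO replicates 1 and 3. The KO minus WT difference was 0.35 without injury (95% interval -0.57 to 1.27, limma adjusted p 0.751) and -0.69 with injury (-1.62 to 0.24, adjusted p 0.587). The latter estimate was lower than that of all but 4.67% of the genes tested, and without injured KO replicate 2 it was -0.32. Means increased from 4.004 ± 1.07 RPM in uninjured WT through 4.48 ± 2.40 in injured KO and 5.55 ± 2.22 in uninjured KO to 7.49 ± 2.42 in injured WT (SD, n = 3), each step smaller than the SD of a neighbour.

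Six4, a homeobox gene expressed in muscle, was at 7.76, 9.04 and 11.99 RPM in uninjured WT and at 6.47, 3.86 and 14.2 RPM in uninjured KO. With injury it was at 8.85, 15.9 and 14.6 RPM in the WT and at 12.6, 6.09 and 13.9 RPM in the KO libraries. KO replicate 2 was the lowest library in both states, and the remaining KO libraries overlapped with WT. Six4 differed by -0.35 without injury (95% interval -1.37 to 0.67, limma adjusted p 0.774) and by -0.28 with injury (-1.11 to 0.54, adjusted p 0.823). Both estimates turned positive, to 0.03 and 0.05, without KO replicate 2 of that state. Over 10 alternatives of processing that left no library out, the uninjured estimate ran from -0.41 to -0.11 and the injured one from -0.31 to -0.25. From lowest to highest, the group means were 8.16 ± 5.36 RPM in uninjured KO, 9.60 ± 2.17 in uninjured WT, 10.9 ± 4.20 in injured KO and 13.1 ± 3.74 in injured WT (SD, n = 3), with no step beyond the SD of its neighbours.

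In uninjured muscle the median log2 difference of all genes tested was -0.18, and TMM and upper quartile scaling, which adjust for differences in library composition, moved it to 0.01 and 0.07. Uninjured KO replicate 2 had the lowest scaling factor of all libraries, 0.698 with TMM and 0.609 with upper quartile scaling, so its RPM values rise when scaled. Relative to all genes, the estimates of Myod1, Myog, Mef2d and Mef2c lay at the 87.2, 83.7, 78.2 and 71.2 percentiles, and those of Mef2a and Six4 at the 40.3 and 38.3 percentiles. In injured muscle, where the median was 0.01, Mef2c was at the 84.5 and Myog at the 4.67 percentile. The authors' deposited table, whose fold changes are WT over KO, gives log2 values of -0.57 for Mef2d, -0.68 for Myod1 and -0.76 for Myog in uninjured muscle. For Mef2c, Mef2a and Six4 it gives -0.33, 0.04 and 0.11 there. In injured muscle the authors' deposited table lists -0.40 for Mef2c and 0.71 for Myog. Its q-value is 0.986 for all 6 in uninjured and 0.994 for all 6 in injured muscle.

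**Figure D2:**
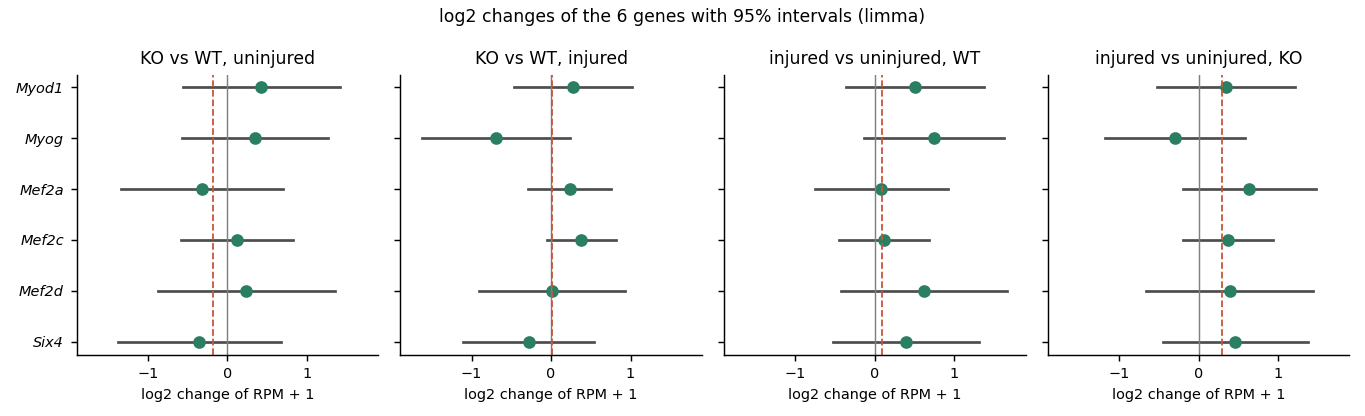
log2 changes of RPM + 1 (horizontal axis) for the 6 regulators in 4 comparisons, with points for limma estimates, bars for 95% intervals, a solid line at 0 and a dashed line at the median of all genes tested. Every interval spans 0, with Mef2c after injury (-0.05 to 0.81) nearest to leaving it out.

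Injury was compared within each genotype. None of the 6 passed in WT or in KO, and by limma no gene passed at all: percent called was 0 in both comparisons, with 1.29% of 13337 genes at an unadjusted p under 0.05 in WT and 3.51% in KO, and DESeq2 and edgeR on recovered reads called 0 as well. In WT all 6 estimates were positive, from 0.08 for Mef2a to 0.74 for Myog, beside 62.4% of all genes with a positive estimate. In KO 5 of 6 were positive, beside 80.9% of all genes, whose median there was 0.29 and shifted to -0.02 with upper quartile scaling. In KO no member separated the uninjured from the injured libraries, against 6.74% of all genes.

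Myod1 had a higher mean with injury in both genotypes, and its injured and uninjured libraries overlapped in each. The estimates were 0.50 in WT (95% interval -0.37 to 1.37, limma adjusted p 1) and 0.35 in KO (-0.52 to 1.22, adjusted p 0.770), and the KO value was 0.093 with TMM and -0.0037 with upper quartile scaling. For Mef2d in WT the injured libraries, from 74.7 RPM, were all above the uninjured ones, which reached 71.9 RPM. This estimate was 0.62 (-0.43 to 1.67, limma adjusted p 1), and 10% of all genes separated the WT groups in this way. Mef2a and Mef2c had the smallest WT estimates, 0.08 (-0.76 to 0.92) and 0.11 (-0.46 to 0.68), both with a limma adjusted p of 1. In KO, the RPM range of the uninjured libraries enclosed that of the injured ones for Mef2a, Mef2c, Mef2d and Six4, with uninjured KO replicate 2 the lowest and replicate 3 the highest library of each. Their KO estimates were 0.64, 0.37, 0.39 and 0.46, and with upper quartile scaling 0.27, -0.0077, 0.022 and 0.14.

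Myog was the member whose injury difference was least alike in the genotypes. In WT the injured replicates 1 and 2 were above every uninjured library and replicate 3, at 4.82 RPM, lay just below the highest of them, and the estimate was 0.74 (95% interval -0.14 to 1.62, unadjusted limma p 0.0908, adjusted p 1). In KO the groups overlapped, for an estimate of -0.30 (-1.17 to 0.58, limma adjusted p 0.798). The libraries numbered 2 were the highest uninjured and the lowest injured KO library, at 7.08 and 2.05 RPM, or 90 and 37 reads. The genotype by injury interaction, the test of the difference itself, was -1.04 (-2.28 to 0.20) with an unadjusted limma p of 0.0943 and an adjusted p of 0.9999. Of all genes tested, 0.277% had a lower interaction estimate, the median over all genes was 0.20, and 0 genes were called, with 1.56% at an unadjusted p under 0.05, none of them a member. Without injured KO replicate 2 the value was -0.67, and without the other libraries it stayed between -1.36 and -0.85. Interactions of the other 5 members ran from -0.23 for Mef2d to 0.55 for Mef2a, all with limma adjusted p values of 0.9999.

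Ratios between members within a library do not depend on how the library is scaled. For the 15 pairs of members the KO and WT libraries were compared in each state, which gave 30 exact permutation tests. The ranges of KO and WT did not overlap for 4 of 15 ratios without injury and 2 of 15 with injury. Over ratios of all gene pairs, 25.2% and 18.1% separated the genotypes in the same way, so these counts are close to the background. Each of the 6 had an exact two-sided p of 0.1, the smallest possible here, and an adjusted p of 0.5 over the 30 tests.

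Mef2a over Mef2d was 1.12, 1.31 and 1.24 in uninjured WT and 0.851, 0.888 and 0.738 in uninjured KO. The WT ratios were all above 1 and the KO ratios all below it, with geometric means of 1.22 and 0.823. In injured WT the ratio was 0.809, 0.772 and 0.942, below every uninjured WT library, and in injured KO it was 0.874, 1.44 and 0.744, which overlapped with WT. The share of all gene pairs that separate injured from uninjured WT in this way was not computed. Mef2d over Six4 was 6.95, 4.94 and 6 in uninjured WT and 9.52, 8.22 and 10.3 in uninjured KO. KO was the higher genotype in every library there, while the injured values, 8.44, 7.23 and 5.12 in WT and 8.93, 7.75 and 8.84 in KO, overlapped. Myod1 over Mef2a and Myod1 over Six4 were also higher in all uninjured KO libraries, by 0.79 and 0.88 on the log2 scale. Myod1 over Myog was 1.23, 2.87 and 3.58 in injured WT and 3.95, 8.03 and 4.26 in injured KO. Its geometric means were 2.33 and 5.13, a log2 difference of 1.14, whereas without injury the ratio was 1.46, 3.13 and 5.62 in WT and 3.97, 1.66 and 4.31 in KO and overlapped.

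**Figure D3:**
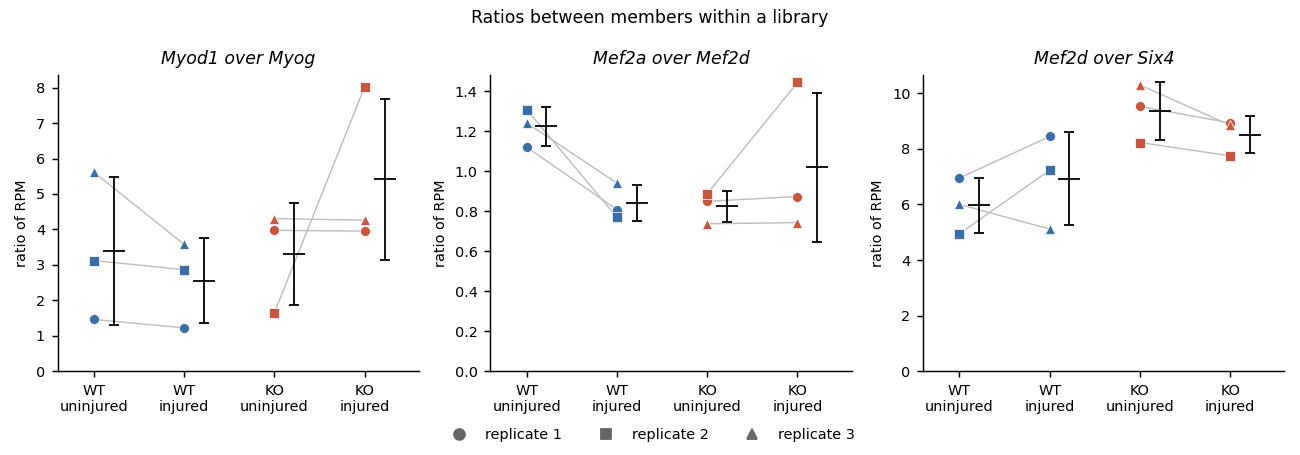
Ratios of RPM (linear axis from 0) of 3 pairs of members in each library, with WT in blue, KO in red, symbols for replicates 1 to 3, lines joining the same number, and black bars for the mean ± SD (n = 3). Mef2a over Mef2d and Mef2d over Six4 separate the genotypes without injury, and Myod1 over Myog separates them with injury, where injured KO replicate 2 is the highest at 8.03.

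Over the 12 libraries, Mef2a, Mef2c, Mef2d and Six4 varied together, with Pearson's r of log2(RPM + 1) between 0.67 and 0.88 for their 6 pairs. Myod1 had r of 0.68 to 0.75 with each of these 4. Myog had r of -0.16 to 0.34 with the other 5, and the lowest value was with Mef2c. For comparison, the median r over all pairs of 9173 genes with a mean of at least 5 RPM was 0.22, and the 90th percentile was 0.749. These values are descriptions over 12 libraries that share sample numbers and differ in depth and mitochondrial share, and KO replicate 2, low for the Mef2 genes and Six4, is among the points. With the group means removed, the 6 pairs among the Mef2 genes and Six4 had r of 0.84 to 0.94. The background over all pairs was not computed with group means removed, so it cannot be set beside these values.

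For each member, genes among the 3 most like it by this r are given. The highest was Med14 (r = 0.99), which encodes a Mediator subunit, for Mef2d, followed by Eml1 and Calcoco1. Mef2a was nearest to Hnrnph2 (0.99), Nucks1 and Tmx4, Six4 to Ppp1r14c (0.98), Taf11 and Prdx3, and Mef2c to Colgalt1 (0.97) and Zfp91. Myod1 was nearest to Plpp7 (0.92), Ezh1 and Scamp1. The genes nearest to Myog reached lower values, with Wrap73 at 0.83, Mpi at 0.82 and Borcs5 at 0.79.

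Genes that work with the 6 regulators were taken as lists. Of the other myogenic regulatory factors, Myf6 passed in both states, and Myf5, the satellite cell member of the family, differed by 0.04 without injury (limma adjusted p 0.988) and by 0.46 with injury (adjusted p 0.790). Myf5 was at 1.43, 1.12 and 0.957 RPM in injured WT and at 3.69, 0.277 and 3.42 RPM in injured KO, where replicate 2 rests on 5 reads. Without that library its difference was 1.08 with a limma adjusted p of 0.0176, in a fit that called 2343 genes. Myf5 had 0 reads in uninjured WT replicate 2, where 3 reads would be 1.596 RPM.

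Of 12 other genes of the Mef2 and sine oculis homeobox families and their Eya and Dach cofactors, 8 were tested and 0 passed between KO and WT. Their median difference was -0.39 without injury, beside -0.18 for all genes, and -0.14 with injury. Mef2b had 0 reads in all 12 libraries. Eya4 ranged from 0.551 to 14.0 RPM among the uninjured KO libraries alone and was at 5.21 to 7.75 RPM in the group means. Dach1, which encodes a corepressor of sine oculis homeobox factors, was at 5.08 ± 3.69 RPM in uninjured WT and 1.87 ± 1.19 RPM in uninjured KO (SD, n = 3), a difference of -0.93 (limma adjusted p 0.534).

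Among 17 E proteins and inhibitors of basic helix-loop-helix factors, 15 were tested without injury and 14 with injury, and 0 passed. Tcf4, which encodes an E protein that partners the myogenic factors, was at 85.0 ± 5.39 RPM in uninjured WT and 49.8 ± 15.4 RPM in uninjured KO (SD, n = 3), without overlap, for a difference of -0.80 (limma adjusted p 0.248). Of all genes, 21.7% separated the uninjured groups. Over 10 alternatives of processing that left no library out, the Tcf4 difference ran from -0.81 to -0.47. After injury Tcf4 differed by -0.06. Hes1, a repressor in the Notch pathway, differed by -0.37 in injured muscle (limma adjusted p 0.515), again without overlap, beside 16.9% of all genes. Of 20 Mef2 corepressors, coactivators and kinases, 19 were tested and 0 passed. Ep300, which encodes a coactivating acetyltransferase, differed by -0.92 without injury (limma adjusted p 0.346) and by -0.01 with injury. Prkd1, a kinase that acts on class IIa histone deacetylases, differed by 0.35 with injury (adjusted p 0.597), and Mapk7, a kinase of Mef2 proteins, by 0.59 between injured and uninjured KO (adjusted p 0.728). Median differences of the cofactor list were -0.02 and 0.02.

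Known muscle targets of these factors were the list with a call. Of 27, 23 were tested without injury and 24 with injury. Chrnb1, the beta subunit of the muscle acetylcholine receptor, fell from 50.2 ± 3.84 RPM in uninjured WT to 12.1 ± 1.75 RPM in uninjured KO (SD, n = 3), which is -1.98 on the log2 scale (SE 0.27; adjusted p 0.0267 by limma). It was the only one of the 23 to pass (background 0.281%). The call was lost in 7 alternatives, in which the highest adjusted p was 0.372, and the estimate stayed between -2.05 and -1.70. In injured muscle Chrnb1 was at 52.4 ± 8.85 RPM in WT and 18.3 ± 11.6 RPM in KO, a difference of -1.61 that did not pass (limma adjusted p 0.257) and that was -2.07 without injured KO replicate 2 (adjusted p 0.00250). Other receptor subunit genes had estimates near 0 with wide intervals: Chrna1 differed by 0.0047 without injury (95% interval -1.21 to 1.22) and 0.16 with injury, and Chrnd differed by 0.18 with injury (-0.38 to 0.74).

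Over the whole list, Chrnb1 included, estimates were above 0 for 17 of 23 targets without injury and for 15 of 24 with injury, where 36.8% and 52% of all genes were above 0. Median differences were 0.15 and 0.17, beside -0.18 and 0.01 for all genes. At an unadjusted p under 0.05, 5 were higher and 1 lower without injury, and 4 higher and 1 lower with injury. Of all genes, 3.53% were higher and 10.7% lower by this rule without injury, and 5.06% and 5.26% with injury. The higher ones, named after their values were seen, were Des, Ckm, Myh8, Myl4 and Xirp1 without injury, by 0.96 to 1.17, and Myh3, Cdkn1a, Myom1 and Myl4 with injury, by 0.79 to 1.09. Their limma adjusted p values were 0.137 to 0.248 and 0.251 to 0.407. With DESeq2 on recovered reads, and by the q-value of the authors' deposited table, the 5 of uninjured muscle passed, among 663 and 331 genes called. The submitters' processing notes also name DESeq2, so these may not be separate methods. Of 16 alternatives, which include them, Ckm passed in 2, Des, Myh8 and Myl4 in 3 each and Xirp1 in 4. Des, the intermediate filament of muscle, was at 2616 ± 192 RPM in uninjured WT and 5205 ± 83.1 RPM in uninjured KO (SD, n = 3), and Ckm, the muscle creatine kinase, at 5855 ± 689 and 11734 ± 3751 RPM. Both are genes of fibres, and Ckm is also among the fibre markers, whose sum was higher in uninjured KO, as given above. Myh3, the embryonic myosin heavy chain, was at 1.58, 1.31 and 0.689 RPM in injured WT and at 5.30, 2.21 and 3.81 RPM in injured KO, all KO libraries above all WT ones. Of all genes, 16.9% separated the injured groups in either direction. Mymk, the fusion factor, was at most 0.630 RPM in any library and was not tested.

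**Figure D4:**
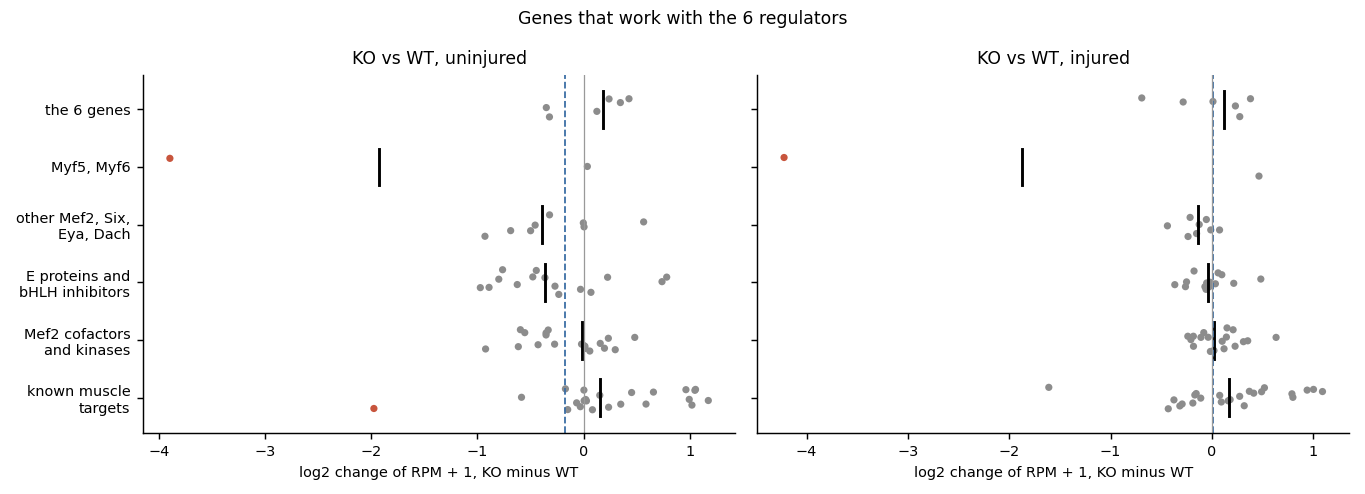
log2 difference of RPM + 1, KO minus WT (horizontal axis), for each tested gene of the 6 regulators and of 5 lists of genes that work with them, without and with injury; red points passed an adjusted p of 0.05, black bars are list medians and dashed lines the median of all genes. Among the listed genes, Myf6 passed in both panels and Chrnb1, at -1.98, in uninjured muscle.

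Binding of Flag-tagged Myf6 in myotubes was described from the authors' list of 12898 peaks, whose fold is the enrichment over the local background that the peak caller estimated, with a median of 7.68 over the list. Each of the 5 members with an annotated start in the RefSeq promoter table had a peak summit within 10 kb of a start, beside 12.8% of 17274 protein-coding genes. Within 1 kb there were 2 of 5, Mef2c and Mef2a, beside 2.78%. Within 50 kb all 5 had one, beside 39.6%. Only Mef2d had a peak of at least 10-fold within 10 kb, beside 3.58%. By a rule added after the data were seen, a summit inside the gene interval or within 10 kb of it, all 6 had a peak, beside 26.1% of 21631 genes. No test was run, since there was 1 library, and longer genes hold more peaks. Coordinates are on the GRCm38 assembly: the processing notes name mm10 and GRCm38.p5 without saying which step used them, and the gene positions come from RefSeq on GRCm38.p6, which shares the primary assembly.

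Mef2c (chr13:83504017-83667079) had 2 peaks within 50 kb, of which 1 was at the annotated start. That peak, chr13:83504041-83504257, had its summit 124 bp after the start inside the gene and a fold of 9.27, above 69.8% of all peaks. The other, chr13:83459165-83459304, lay 44.8 kb upstream with a fold of 4.51, above 6.87%. Mef2a (chr7:67231163-67376456, minus strand) had 6 peaks inside the gene or within 50 kb of it, 1 of them with its summit 699 bp upstream of the start in the promoter table, at chr7:67373471-67373641 with a fold of 7.91, still inside the gene interval. A stronger pair lay 12.4 and 12.8 kb upstream, at chr7:67385144-67385414 and chr7:67385489-67385849, with folds of 14.7 and 14.5, above 93.3% and 92.8% of peaks, and the remaining 3 had folds of 5.48 to 8.56. Mef2d (chr3:88141941-88172091) had 3 peaks, all inside the gene, 3.11, 5.31 and 8.23 kb after the start. Those at 5.31 and 8.23 kb were strong, with folds of 13.5 and 12.4.

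Promoter windows of Mef2c, Mef2a and Myog are shown because the first overlaps a peak, the second has a peak upstream of it, and the third belongs to the gene with the most peaks around it. Each is 280 bases from RefSeq on GRCm38.p6, 250 before the start and 30 from it onward, 5′ to 3′ on the strand of the gene. Capitals mark E-boxes (CANNTG), the MEF3 core (TCAGGTT, on either strand) and the MEF2 consensus. The MEF2 consensus was YTAWWWWTAR, with Y for C or T, W for A or T and R for A or G. Only exact matches are marked. The windows are chr13:83503784-83504063 on the plus strand for Mef2c, chr7:67372829-67373108 on the minus strand for Mef2a and chr1:134289754-134290033 on the plus strand for Myog. The Mef2c peak begins at 83504041, after the start, so it covers only the last bases of that window and none of the marked motifs.
Mef2c: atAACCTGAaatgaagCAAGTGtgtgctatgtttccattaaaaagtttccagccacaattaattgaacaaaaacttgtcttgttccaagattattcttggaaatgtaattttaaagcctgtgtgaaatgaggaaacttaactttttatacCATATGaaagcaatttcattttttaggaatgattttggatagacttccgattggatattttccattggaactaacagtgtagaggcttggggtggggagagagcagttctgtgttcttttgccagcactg
Mef2a: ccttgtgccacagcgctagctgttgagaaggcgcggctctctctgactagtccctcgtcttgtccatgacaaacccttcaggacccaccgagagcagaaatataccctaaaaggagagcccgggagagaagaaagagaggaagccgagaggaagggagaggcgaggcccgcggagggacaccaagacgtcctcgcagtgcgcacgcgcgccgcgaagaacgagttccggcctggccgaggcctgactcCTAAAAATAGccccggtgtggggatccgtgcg
Myog: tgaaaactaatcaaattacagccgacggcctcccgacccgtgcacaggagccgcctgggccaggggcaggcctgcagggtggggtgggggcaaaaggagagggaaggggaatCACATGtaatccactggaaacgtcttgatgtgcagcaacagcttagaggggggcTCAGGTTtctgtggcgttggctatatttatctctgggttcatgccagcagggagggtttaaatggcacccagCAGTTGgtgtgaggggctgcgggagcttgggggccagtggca

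Counting the first transcribed base as 1 and the base before it as -1, the Mef2c window held the E-boxes CAAGTG at -234 and CATATG at -100 and the MEF3 core on the minus strand at -248 to -242. Mef2a held no E-box and 1 match to the MEF2 consensus, CTAAAAATAG, which spans the start from -2 to 8. The Myog window held the E-boxes CACATG at -138 and CAGTTG at -12 and the MEF3 core at -84 to -78. It held no exact match to the MEF2 consensus, but its ctatatttat differs from that consensus only at the last base. Six4 had 1 MEF3 core on the minus strand at -97 to -91 in its first window, and the Mef2d window held none of the motifs. Of 32851 RefSeq promoter windows of the same length, 70.1% held an E-box and 36.7% held 2 or more, 3.85% held the MEF3 core and 3.07% the MEF2 consensus. These matches are descriptions of the letters, not of binding. The promoter table matched 5 of 6 members.

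Six4 (chr12:73099609-73114031, minus strand) had weaker peaks, 2.49 and 9.38 kb after the start inside the gene, with folds of 5.80 and 7.68. A peak 12.02 kb upstream lay within Mnat1 and had a fold of 3.87, above 2.98% of the list. Myog (chr1:134290004-134292548) and Myod1 (chr7:46376474-46379092), the pair of myogenic factors, had no peak at their starts and many around the gene. Nearest to Myog was a peak 6.65 kb upstream with a fold of 5.80, and 9 peaks lay within 50 kb. Of these, 6 were inside the neighbouring gene Ppfia4, and the strongest, with folds of 10.8 and 10.4, were 44.5 and 44.8 kb upstream. As many flanking peaks within 50 kb were found for 0.0693% of protein-coding genes, and 0.601% had as many with peaks inside the gene counted too.

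Myod1 had 8 peaks within 50 kb, all on the side of lower coordinates, 5.18 to 35.9 kb from the gene. As many flanking peaks were found for 0.153% of genes, and 0.948% had as many with peaks inside the gene counted too. The folds of the 8 Myod1 peaks, 4.56 to 6.76, were all below the median of the list. Their signal heights ran from 12.5, above 12% of peaks, to 56.0, and 6 of the 8 were above the median height of the list, 20.3. The highest was 23.1 kb away, chr7:46353189-46353449, above 96.2% of peaks in height and with a fold of 5.18. The quotient (height + 1) / fold was 11 there and 11 at chr7:46348833-46349070, above that of 99.5% and 99.6% of peaks, where the median peak had 3. This quotient rises with the local background but is not a direct reading of it. Myf6 and Myf5, which are neighbours, shared 2 peaks within 50 kb, with folds of 8.70 and 5.07, and none lay within 50 kb of Mef2b. Mef2d overlaps 1700113A16Rik, Six4 overlaps Mnat1, and Mef2c overlaps Gm52043 and Gm52044 in the RefSeq table, and strand use in read counting is not given in the sources used here, so reads of these genes may include those of an overlapping transcript.

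**Figure D5:**
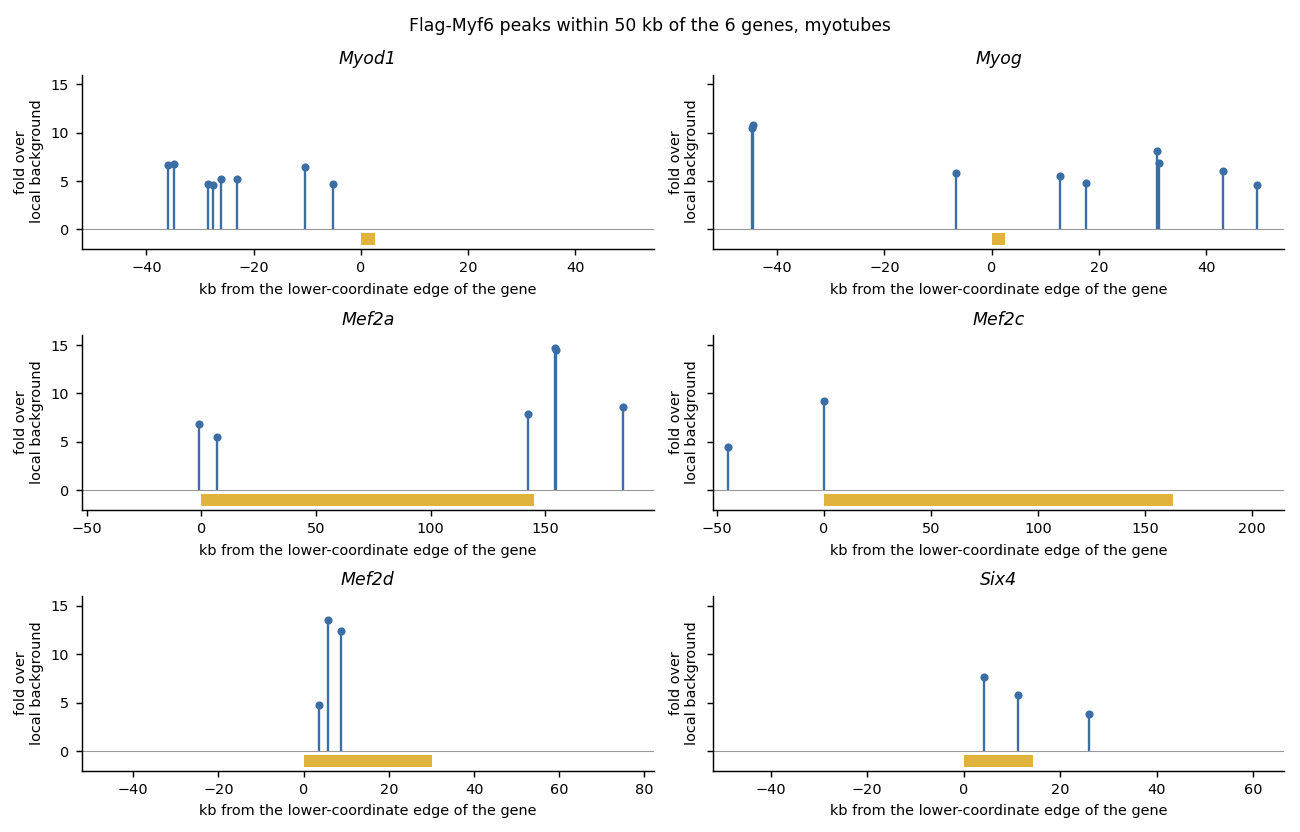
Fold over local background (vertical axis) of each deposited Flag-Myf6 peak within 50 kb of the 6 genes, at its distance in kb from the lower-coordinate edge of the gene (horizontal axis, different for each panel), with a bar for the gene interval. The 8 peaks of Myod1 all lie on 1 side with folds under 7, 1 of the 2 peaks of Mef2c lies at the gene's edge and the other 44.8 kb upstream, and those of Mef2d lie inside the gene.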

How the data were processed

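RNA was extracted with Trizol and TruSeq RNA v2 libraries were made, per the labels' protocols. Uninjured and injured muscle have a table each, in which the authors deposited RPM for every library together with a log2 fold change, its standard error (a score for each gene), and a p-value with its q-value. The peak list holds, per the file headers, signal (pileup height), fold enrichment (a ratio), and both p-value and q-value as −log10. It was made with MACS2 2.1.0.20140616 at a q-value cutoff of 0.05, per the file headers. Per the submitters' processing notes, HISAT2 2.1.0, Bowtie 1.1.0, SAMtools, featureCounts and DESeq2 were used. How strand and multiply mapped reads were treated is not given in the sources used here.

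The main test was limma 3.58.1 (R 4.3.3) with a mean-variance trend on log2(RPM + 1), keeping genes that reached 1 RPM in 3 or more fitted libraries, with two-sided Benjamini-Hochberg adjustment over all genes tested and a threshold of 0.05. These log2 differences understate changes of low genes. KO and WT were compared within their own 6 libraries, and injury and the interaction in all 12. Whole reads were recovered from the RPM steps, with 100% of tested values whole within 0.1 read, and used for depth and for DESeq2 1.42.0 and edgeR 4.0.16 as alternatives. The limma, edgeR and DESeq2 scripts were tested on simulated data. Gene names are those of the tables, and all 6 members were matched by identifier. Where a list had no call, the 2 genes with the lowest unadjusted p between KO and WT and at most 1 for injury were named, with Myf5, Mef2b, Eya4, Myh3 and Mymk named always. Some genes that these rules select are not reported here. The members, lists, tests and alternatives were chosen with earlier results of these data known. Peaks were placed by summit against RefSeq starts. Of the other marker lists, the summed fibroblast, endothelial, Schwann cell, smooth muscle and erythroid markers overlapped between KO and WT in both states.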

Additional observations from a re-analysis of the deposited data

Results flagged for a closer look

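Id2, which encodes an inhibitor of basic helix-loop-helix factors such as Myod1 and Myog, had estimates of opposite sign for injury in the genotypes. When each injured library is set beside the uninjured library of the same number, all 3 WT libraries were lower and all 3 KO libraries higher with injury, although the labels do not say that a number names an animal. Its means were 3.77 ± 1.43 and 2.69 ± 1.299 RPM (SD, n = 3) in uninjured and injured WT, and 1.81 ± 1.45 and 3.93 ± 0.101 RPM in uninjured and injured KO. The KO change exceeded the WT change by 1.37 on the log2 scale, with an interaction p of 0.0508 before adjustment and 0.9999 after it in limma, so the difference did not pass. The KO change was 0.99 and rests on uninjured KO replicate 2, at 0.157 RPM the lowest of the 12 libraries: without it the change was 0.44.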

How the results depend on the processing

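The count of members called stayed at 0 under 16 alternatives in each comparison of KO with WT and 20 in each injury comparison and the interaction. The cause of the changes below was not tested. The number of all genes called without injury (35) became 96 with TMM and 162 with upper quartile scaling, 20 with a pseudocount of 0.1, 1 with no filter, 7 with a filter on every library, 663 with DESeq2, 55 with edgeR, 167 with all 12 libraries in 1 fit, 331 by the authors' deposited q-value, and 3 to 84 with a library left out. The share of these calls that were higher in KO was 45.7%, against 54.2% with TMM, 67.9% with upper quartile scaling, 14.3% with the filter on every library, 28.1% with all 12 libraries and 24.1% with the replicate block. After injury the 34 became 19 with no filter, 4 with the filter on every library, 427 with DESeq2, 56 with all 12 libraries, 225 by the authors' deposited q-value, and 0 to 2343 with a library left out, the 2343 without injured KO replicate 2. Injury in KO gave 0 to 1. The replicate block gave 752 genes without injury and 0 with injury, and Myf6, at an unchanged estimate of -4.22, lost its call in injured muscle (limma adjusted p 0.110) while no member gained one. Without injury Myf6 also lost it with no filter (adjusted p 0.120). Same-numbered KO and WT libraries had deviations correlated at 0.04, 0.26 and 0.37 without injury and at -0.45, -0.60 and -0.30 with injury, same-numbered WT libraries of both states at 0.28, -0.23 and 0.02 and KO libraries at 0.02, 0.50 and 0.63. Differently numbered libraries of different groups had values from -0.62 to 0.64, and uninjured with injured KO libraries from -0.62 to 0.50. No result above rests on a pairing by number, apart from the values of Id2 set side by side. Signs reversed for Myf5 without injury (-0.13 with DESeq2, -0.17 with edgeR, -0.13 in the authors' deposited table), for injury in KO with upper quartile scaling (Myod1 -0.0037, Mef2c -0.0077), and for the interaction of Mef2c with upper quartile scaling (-0.036) and of Six4 with TMM (-0.11), upper quartile scaling (-0.17), DESeq2 (-0.17) and edgeR (-0.18). With a library left out, KO minus WT without injury ranged from -0.81 to 0.14 for Mef2a, -0.14 to 0.42 for Mef2c, -0.33 to 0.76 for Mef2d, -0.80 to 0.026 for Six4, -0.55 to 0.29 for Myf5 and -0.068 to 1.21 for Myh3, and with injury from -0.24 to 0.45 for Mef2d and -0.52 to 0.053 for Six4. Injury differences then ranged from -0.062 to 0.28 for Mef2a in WT, -0.62 to 0.076 for Myog in KO and -0.13 to 0.96 for Mef2d in KO, and interactions from -0.40 to 0.24 for Myod1, -0.042 to 0.52 for Mef2c, -0.75 to 0.34 for Mef2d and -0.31 to 0.51 for Six4. Members with a peak numbered 5 of 5 within 10 kb of a start, 2 within 1 kb and 1 at a fold of at least 10. In uninjured WT replicate 2, of 1880087 reads, Myod1, Myog and Six4 rest on 25, 8 and 17 reads.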
